A study of Drosophila melanogaster with 27 samples.

Results

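The genes for aminoacyl-tRNA synthetases were followed through normal and tumour imaginal discs of Drosophila melanogaster larvae. Members were all rows whose FlyBase symbol is the name of an amino acid in 3 letters followed by RS, or GluProRS, with or without the suffix -m that marks a mitochondrial enzyme. The rule gave 33 symbols, of which 31 had a row among the 15348 genes counted, 17 cytosolic and 14 mitochondrial. LeuRS and PheRS-m are not analysed here, and the cytosolic phenylalanine enzyme, whose subunits are named alpha-PheRS and beta-PheRS, lies outside the rule and was read with the partner proteins. All 31 members passed the filter on low counts, so no member was left out of the tests for lack of reads.

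Aminoacyl-tRNA synthetases join each amino acid to its tRNA and so supply the ribosome with charged tRNA. The cytosolic enzymes serve the ribosomes of the cytosol, and a second, nuclear-encoded set is imported into mitochondria to serve mitochondrial translation. In animals several cytosolic synthetases are held with the scaffold proteins AIMP1, AIMP2 and AIMP3 in a multi-synthetase complex, and GluProRS is a fused protein that charges both glutamate and proline tRNAs. In yeast and mammals, uncharged tRNA activates the kinase GCN2, and the transcription factor that is translated in response, ATF4 in mammals and crc in flies, is known to raise many cytosolic synthetase genes. Imaginal discs are growing epithelia with a high demand for protein synthesis.

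Gene expression was measured by RNA sequencing of hand-dissected eye-antennal, leg and wing discs from wandering larvae of the last instar. In the control group (day 5, 2 libraries a disc) hh-Gal4 with UAS-GFP drove a hairpin against luciferase (UAS-luc-RNAi), and in the tumour group (2 libraries a disc) the same driver and UAS-GFP also expressed UAS-scrib-RNAi, against an epithelial polarity gene, and UAS-Ras[v12], an activated Ras, beside the luciferase hairpin. The first replicate of each tumour disc was taken on day 9 and the second on day 11. Further groups carried the scrib hairpin, UAS-Ras[v12], hh-Gal4 and UAS-GFP with a TRiP hairpin in place of the luciferase hairpin, in eye-antennal and leg discs: CG6272 (HMS00057; day 8, 4 libraries), Stat92E (HMS00035; day 8, 3 libraries), sd (JF02514; days 7 and 8, 4 libraries), tai (GL00514; day 10, 3 libraries) and kay (HMS00254; day 10, 1 eye-antennal library). For both eye-antennal samples with sd in the title, the genotype field gives the hairpin of kay. They were placed by title, and the sd, tai and kay groups are called by their titles because their hairpins did not lower the target gene past the threshold (adjusted p 0.565 for sd, 0.348 for tai and 0.221 for kay). The driver acts in the posterior compartment of each disc, so each library also holds RNA of cells without the transgenes, and fewer expressing cells cannot be told apart from less RNA per cell. Each library pooled discs of many larvae, and replicates 1 and 2 of a genotype were independent dissections. The 3 discs of one tumour day share a dissection number, so that day and dissection cannot be told apart.

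Reads assigned to genes ranged from 11.68 to 16.01 M a library, and levels are given as CPM, counts scaled to a common library total after TMM normalization. Alignments to more than 1 place, which the table gives in a line of its own, formed 15.8% to 22.9% of everything tallied in control, 26.1% to 33.9% in CG6272, 43% to 58.1% in Stat92E, tai and sd, 61.5% in the kay library, and 54.4% to 76.1% in tumour libraries. They were not counted, and their part in the results was not tested. The label check by targets gave scrib at 368 ± 40.6 CPM in control and 245 ± 18.2 CPM in tumour discs (SD, n = 6 each; adjusted p 9.95e-06) and Ras85D, whose reads include those of the transgene where it matches, at 287 ± 18.5 CPM and 894 ± 295 CPM. The CG6272 gene, now named Irbp18, had 70.6 ± 25.1 CPM in tumour and 10.8 ± 1.53 CPM in CG6272 hairpin libraries (n = 6 and 4). Its adjusted p of 4.32e-06 is for eye-antennal and leg discs, without the tumour wing libraries. Stat92E fell under its own hairpin (log2 change -0.39 ± 0.07, adjusted p 0.0032). Summed fat body markers (8 genes) ranged from 524 to 8561 CPM in control, 238 to 396 in tumour and 269 to 3066 in CG6272 libraries, and reached 11964 in eye-antennal replicate 2 of the sd title. Summed hemocyte markers (8 genes) ranged from 552 to 1368 in control and 385 to 985 in tumour libraries. That sum is mostly Ppn, which fell (log2 change -1.05 ± 0.14), while 3 of the 8 markers rose, Hml (2.74 ± 0.53), Sr-CI (1.72 ± 0.43) and Pxn (adjusted p 0.0384), and the median over the 8 was 0.98. Of the fat body markers 6 fell and 1, Lpin, rose (1.31 ± 0.20). Summed salivary glue markers (6 genes) reached 1784 in control and 23.3 in tumour libraries. Averaged over discs, 5 of 6 eye-antennal, 4 of 6 leg and 3 of 5 wing disc markers fell in tumours and 0, 1 and 0 rose, beside 24.5% and 28.3% of all tested genes. In eye-antennal discs 3 of the 6 leg markers rose and 1 fell, beside 17.1% and 12.1% of all tested genes. The part of all these markers in the results below was not tested.

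In control discs the cytosolic genes were expressed well above the mitochondrial ones. Per kilobase of exon, the 17 cytosolic genes had 31.7 to 149 CPM (median 62.3) and the 14 mitochondrial genes 3.15 to 32.9 CPM (median 8.20). AlaRS, the alanine enzyme, was highest at 149 ± 11.3 CPM per kilobase (SD, n = 6), followed by AspRS at 131 ± 12.2 and SerRS at 131 ± 12.2, and these last enzymes, for aspartate and serine, did not differ beyond their spread. ValRS (32.2 ± 2.30) and CysRS (31.7 ± 2.36), for valine and cysteine, were the lowest cytosolic genes and overlapped with the highest mitochondrial gene, AspRS-m (32.9 ± 1.30). The range of MetRS, 34.8 to 39.2, also overlapped with that of AspRS-m, 31.0 to 35.0. After AspRS-m the next mitochondrial gene was SerRS-m at 11.6 ± 1.80, and GluRS-m was lowest at 3.15 ± 0.386 CPM per kilobase. The 3 control discs differed for 2 members, against 11.8% of all 9814 tested genes called in that joint comparison. GlnRS, the glutamine enzyme, had 121 and 127 CPM in eye-antennal, 137 and 137 in leg and 162 and 156 in wing discs (adjusted p 0.0181). ProRS-m, the mitochondrial proline enzyme, had 10.3 and 9.02 CPM in eye-antennal, 14.9 and 12.5 in leg and 15.6 and 14.7 in wing discs (adjusted p 0.0256). Both were lowest in eye-antennal discs, without overlap with the other discs, and no member was called among discs with library totals in place of TMM.

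In tumours, most cytosolic synthetase genes were expressed more highly than in control discs, and mitochondrial genes were not as a group. Control discs were of day 5 and tumours of days 9 and 11, so genotype and day cannot be told apart here. Discs of a genotype with the same replicate number share a dissection, and the fit took them as independent. Averages over discs thus rest on at most 2 dissections a genotype, and their p-values may be too small. In limma-voom with the dissection as a random block (estimated correlation 0.442), 3609 genes were called, beside 5180 in the reported fit. Averaged over the 3 discs, 11 of 17 cytosolic genes rose and 0 fell, with a median log2 change of 0.30, while 3 of 14 mitochondrial genes rose and 1 fell, with a median of 0.07. Of all tested genes 28.3% rose and 24.5% fell in this comparison, with a median of 0.03. The share of cytosolic genes that rose was thus above the background and that of mitochondrial genes near it. The summed level of the 17 cytosolic genes was 3224 to 3870 CPM (median 3546) in control and 3610 to 5174 CPM (median 4348) in tumour libraries. For 6 cytosolic genes all tumour libraries lay above all controls and for 0 below, beside 14.6% and 12% of all tested genes. The summed level of the 14 mitochondrial genes was 333 to 391 CPM in control discs, a range that overlapped with the 347 to 395 CPM of tumours.

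**Figure D1:**
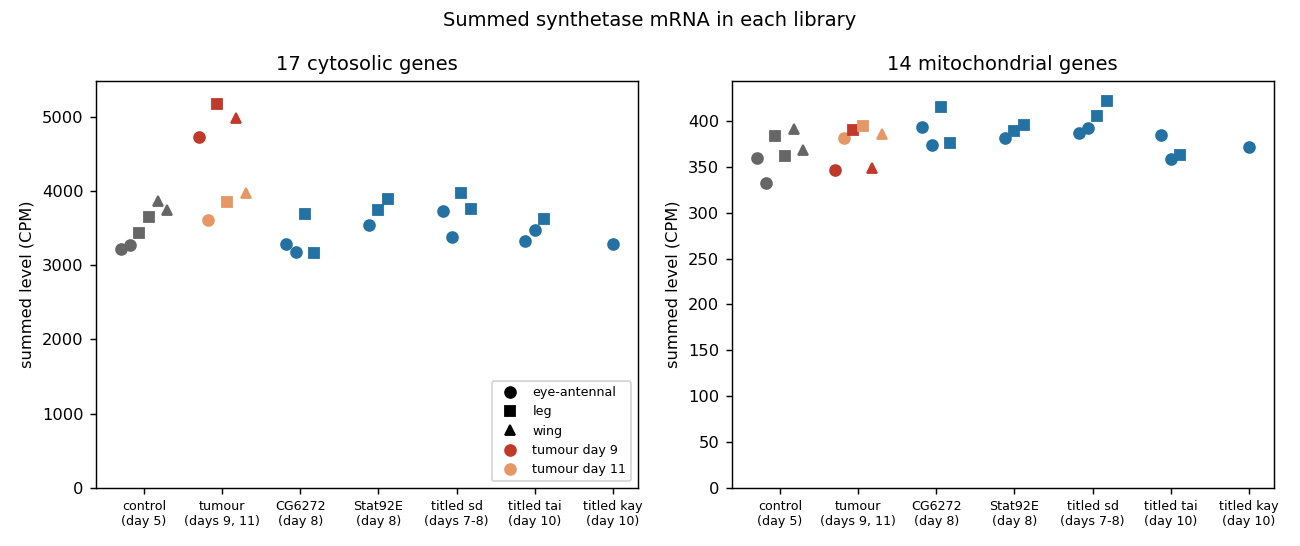
Summed level (CPM, y axis from 0) of the 17 cytosolic (left) and 14 mitochondrial (right) synthetase genes in each of the 27 libraries by genotype (x axis); symbols give the disc, and red marks tumours of day 9 and orange those of day 11. The 3 cytosolic sums of day 9 tumours, 4724 to 5174 CPM, lie above all other libraries, while mitochondrial sums overlap between genotypes.

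TrpRS and HisRS, which charge tryptophan and histidine tRNAs, changed most. TrpRS had 67.2 to 86.5 CPM (median 73.2) in control discs, and in tumours 153, 165 and 186 CPM in eye-antennal, leg and wing discs of day 9 and 88.9, 99.9 and 100.2 CPM in those of day 11. All 6 tumour libraries lay above all 6 controls, the day 9 libraries furthest, with a log2 change of 0.81 ± 0.16 (adjusted p 0.000593). HisRS had 106 to 129 CPM (median 122) in control, 219.7, 253 and 265 CPM in day 9 and 145, 187 and 177 CPM in day 11 tumours. Its groups did not overlap either, with a log2 change of 0.80 ± 0.12 (adjusted p 4.98e-05). HisRS shares 8.9% of its exon bases with Bx on the same strand in the Ensembl annotation, so reads of that stretch may belong to either gene.

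The enzymes for valine, threonine and cysteine also rose without any overlap between tumour and control libraries, and the asparagine enzyme rose with overlap. ValRS had 102 to 119.8 CPM (median 109.6) in control, 196, 224 and 201 CPM in day 9 and 139, 136 and 156 CPM in day 11 tumours (log2 change 0.68 ± 0.12, adjusted p 0.000249). ThrRS had 279 to 365 CPM (median 313) in control, 514, 645 and 566 CPM in day 9 and 373, 451 and 418 CPM in day 11 tumours (log2 change 0.65 ± 0.10, adjusted p 9.28e-05). CysRS had 70.4 to 84.1 CPM (median 78.4) in control, 109, 120.5 and 117 CPM in day 9 and 85.8, 92.6 and 99.4 CPM in day 11 tumours (log2 change 0.42 ± 0.08, adjusted p 0.000312). In each of these 3 genes the day 11 libraries were the 3 lowest tumour libraries. AsnRS had 173 to 224 CPM (median 195) in control, 325, 381 and 316 CPM in day 9 and 195, 248 and 281 CPM in day 11 tumours (log2 change 0.58 ± 0.12, adjusted p 0.000886), and its day 11 eye-antennal library lay within the control range.

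SerRS, for serine, rose mainly in the day 9 libraries. It had 224 to 287 CPM (median 250.4) in control, 389, 413 and 438 CPM in day 9 and 246, 283 and 269.6 CPM in day 11 tumours (log2 change 0.45 ± 0.14, adjusted p 0.0163). Its day 11 libraries overlapped with control, and the call ended when any of the 3 day 9 libraries was left out and in limma-voom with the dissection as a random block. Smaller rises were called for IleRS (0.30 ± 0.09, adjusted p 0.00945), MetRS (0.24 ± 0.06, 0.00225), GlnRS (0.21 ± 0.05, 0.00132) and TyrRS (0.20 ± 0.08, 0.038), the enzymes for isoleucine, methionine, glutamine and tyrosine. IleRS went from 219.8 to 266 CPM (median 241) in control discs to 240.2 to 342 CPM (median 315) in tumours, MetRS 119 to 133 CPM (median 128) and 137 to 162 CPM (median 148). GlnRS went from 121 to 162 CPM (median 137) in control discs to 147 to 172 CPM (median 163) in tumours, TyrRS 133 to 163 CPM (median 151) and 146 to 189 CPM (median 173). Control and tumour libraries overlapped for IleRS, GlnRS and TyrRS and did not for MetRS. The TyrRS call ended when any of 10 of the 12 libraries was left out (TyrRS log2 changes 0.15 to 0.25 over all 12).

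The other 6 cytosolic genes were not called, with log2 changes of -0.09 to 0.36. The largest were AspRS at 0.36 ± 0.15 (adjusted p 0.0536) and GlyRS, for glycine, at 0.16 ± 0.10 (adjusted p 0.181). AspRS had 433, 497 and 511 CPM in day 9 and 262, 286 and 298 CPM in day 11 tumours against 266 to 333 CPM (median 295) in control, so that day 9 libraries lay above all controls and day 11 libraries overlapped with them. An antisense RNA, asRNA:CR45141, covers 63.9% of AspRS exon bases, and since the strand setting of the counting is not given, its reads cannot be told apart from those of AspRS. AlaRS (0.09 ± 0.07), ArgRS for arginine (0.01 ± 0.06), LysRS for lysine (0.01 ± 0.05) and GluProRS (-0.09 ± 0.07) were not called either. LysRS had 225 to 282 CPM (median 249) in control and 237 to 268 CPM (median 254) in tumour libraries, and all 6 tumour libraries lay within the control range.

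Mitochondrial synthetase genes moved in both directions. LeuRS-m, the mitochondrial leucine enzyme, had 18.4 to 23.1 CPM (median 19.4) in control, 24.9, 26.8 and 26.3 CPM in day 9 and 33.5, 31.4 and 29.1 CPM in day 11 tumours, without overlap (log2 change 0.51 ± 0.09, adjusted p 0.000167). CysRS-m had 15.8 to 19.8 CPM (median 18.5) in control and 18.3 to 25.4 CPM (median 21.7) in tumour libraries (log2 change 0.26 ± 0.08, adjusted p 0.00979), a call lost in limma-voom with the dissection as a random block and with day 9 tumours alone. CysRS-m shares 14.3% of its exon bases with CG13016 on the opposite strand. TyrRS-m had 12.4 to 18.4 CPM (median 13.9) and 14.9 to 19.4 CPM (median 16.2) (log2 change 0.21 ± 0.08, adjusted p 0.0324), a call that ended when any of 8 of the 12 libraries was left out (TyrRS-m log2 changes 0.15 to 0.26 over all 12). TrpRS-m fell, opposite to its cytosolic counterpart. It had 19.2 to 23.1 CPM (median 21.5) in control, 15.2, 15.5 and 15.8 CPM in day 9 and 16.9, 17.03 and 20.1 CPM in day 11 tumours, and 5 of 6 tumour libraries lay below all controls (log2 change -0.35 ± 0.07, adjusted p 0.00064). The other 10 mitochondrial genes were not called and had log2 changes of -0.13 to 0.32, the largest in GluRS-m (0.32 ± 0.14, adjusted p 0.0609) and AlaRS-m (0.18 ± 0.07, adjusted p 0.0533).

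**Figure D2:**
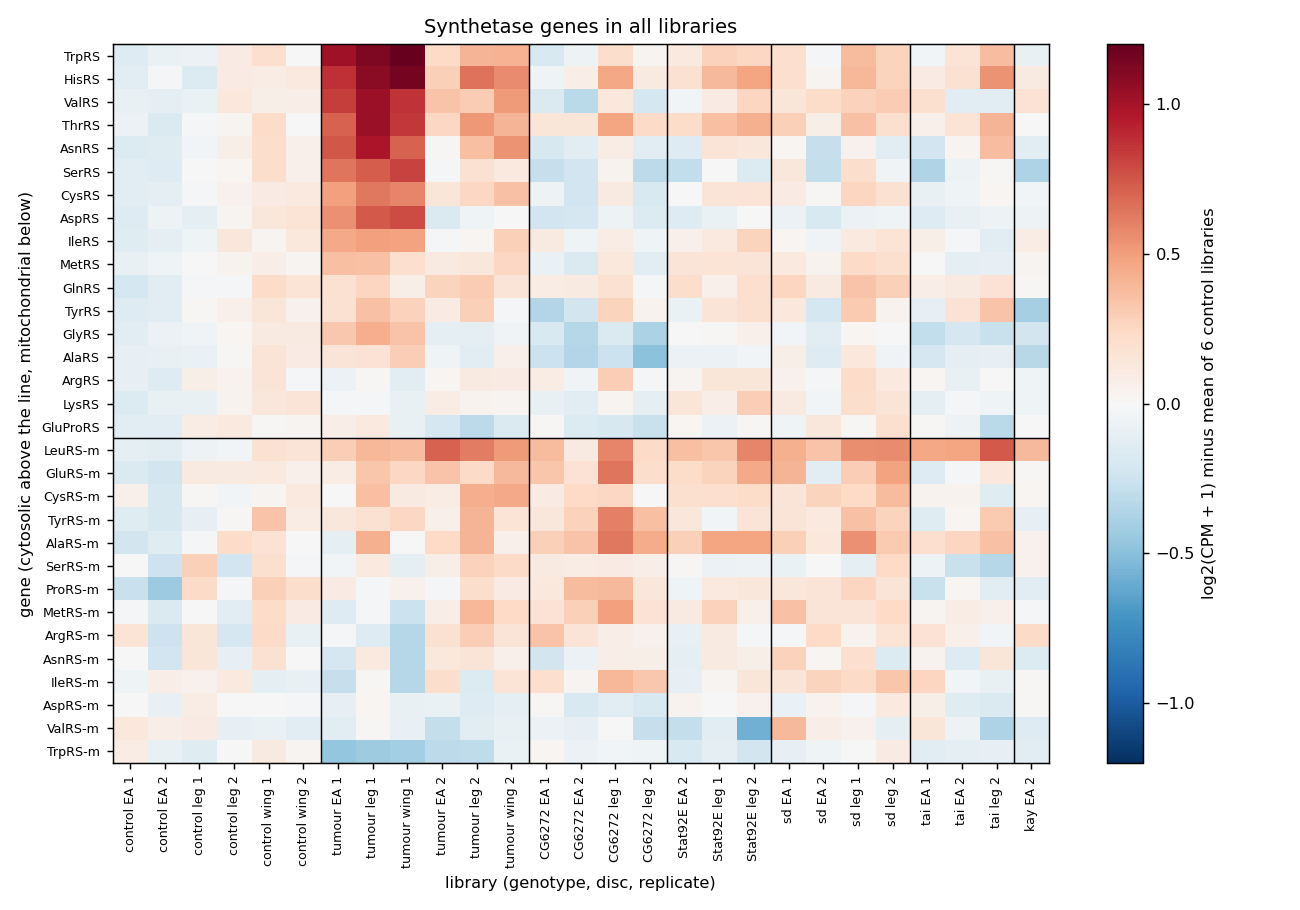
Level of each of the 31 synthetase genes (rows, cytosolic above the line) in each of the 27 libraries (columns, by genotype, with the tumour libraries of day 9 before those of day 11), as log2(CPM + 1) minus the mean of the 6 control libraries; red is above and blue below control. The 3 tumour columns of day 9 are red for most cytosolic genes, and in all 6 tumour columns LeuRS-m is red and TrpRS-m blue.

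The rise of the cytosolic genes was compared between discs. In eye-antennal discs 7 of 17 cytosolic genes rose (GlnRS, ValRS, CysRS, ThrRS, HisRS, MetRS and TrpRS), in leg discs 7 (HisRS, ThrRS, GlnRS, CysRS, ValRS, AsnRS and TrpRS) and in wing discs 4 (HisRS, ValRS, ThrRS and TrpRS), and 0 fell in any disc. The background of rises was 17.1%, 19.7% and 16.3% of all tested genes, and that of falls 12.1%, 18.6% and 14.1%. The median log2 change of the cytosolic genes was 0.36, 0.31 and 0.30 in eye-antennal, leg and wing discs. Of the mitochondrial genes, 2 rose and 1 fell in eye-antennal discs, 3 rose in leg discs and 0 were called in wing discs. A joint test of the difference among the 3 discs called 0 of 31 members, against 3.28% of all tested genes, and the member nearest the threshold was GlnRS (adjusted p 0.0516), with 2 members below an unadjusted p of 0.05. GlnRS had log2 changes of 0.40 ± 0.08 in eye-antennal, 0.31 ± 0.08 in leg and -0.08 ± 0.08 in wing discs. The count of 0 was 1 with DESeq2's test, with limma-voom fitted with the dissection as a random block, and with a term for tumour day. The calls within a disc rest on pooled spread: with the 4 libraries of a disc alone, 1, 2 and 0 members rose in eye-antennal, leg and wing discs. Beside these, 1059 of 9808, 1112 of 9767 and 616 of 9721 genes rose. With 1 of those 4 libraries left out, 2 to 9, 4 to 7 and 0 to 5 members rose, with 2 in eye-antennal discs without either control replicate and 0 in wing discs without either control replicate or tumour replicate 1. Over all genes 1015 to 1301, 1244 to 1629 and 932 to 1549 rose with 1 library left out, and 1676, 1937 and 1597 in the reported fit.

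The tumour libraries of day 9 had higher cytosolic synthetase levels than those of day 11, a comparison added after the data were seen. The summed cytosolic level was 4959 ± 226 CPM on day 9 and 3809 ± 184 CPM on day 11 (SD, n = 3 discs each), without overlap, and the day 11 sums of 3610 to 3972 CPM overlapped with control. In edgeR's quasi-likelihood test 12 of 17 cytosolic genes were lower on day 11 and 0 were higher, with a median log2 change of -0.38, against 7.83% lower and 4.49% higher of all tested genes. These 12 genes also had all 3 day 9 libraries above all 3 of day 11, which 12.5% of all tested genes had. The opposite was found for 2 cytosolic genes, ArgRS and LysRS, and for 4 of 14 mitochondrial genes, beside 12% of all tested genes, and for 0 mitochondrial genes were the day 9 libraries above. Of the mitochondrial genes 1 was higher and 0 were lower, with a median of 0.19. The 3 discs of a day were dissected under one number, so these p-values do not measure the spread between dissections of one tumour day. The fit pooled spread over all 27 libraries (residual df 11), which includes replicate dissections of other genotypes.

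The decline was largest for TrpRS (-0.80 ± 0.09, adjusted p 4.86e-05) and AspRS (-0.77 ± 0.06, adjusted p 1.77e-06), followed by SerRS (-0.64 ± 0.12, 0.00334). TrpRS had 168 ± 16.4 CPM on day 9 and 96.3 ± 6.48 CPM on day 11, AspRS 480.3 ± 41.2 CPM and 282 ± 18.1 CPM, and SerRS 414 ± 24.4 CPM and 266 ± 18.9 CPM (SD, n = 3 each). The next were HisRS (-0.54), ValRS (-0.53), AsnRS (-0.51), ThrRS (-0.47) and GlyRS (-0.45), and the smallest IleRS (-0.38), CysRS (-0.32), GluProRS (-0.27) and AlaRS (-0.25). GlyRS, which missed the threshold against control over both days, had 331, 359 and 337 CPM on day 9 and 245, 246 and 258 CPM on day 11 against 243 to 286 CPM (median 263) in control. The 5 cytosolic genes not called were ArgRS, LysRS, GlnRS, MetRS and TyrRS, and ArgRS (0.14), LysRS (0.10) and GlnRS (0.07) had positive values. MetRS-m, the mitochondrial methionine enzyme, had 12.5, 13.9 and 11.6 CPM on day 9 and 14.9, 18.8 and 16.7 CPM on day 11 (log2 change 0.41 ± 0.11, adjusted p 0.0311). The calls of TrpRS, AspRS, SerRS, HisRS, ThrRS and GlyRS held without any single tumour library, and 6 to 11 members were lower when each library was left out in turn, with 6 without either leg replicate and 7 without eye-antennal replicate 2. Over all genes, 294 to 604 were lower in these fits and 768 in the reported fit.

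**Figure D3:**
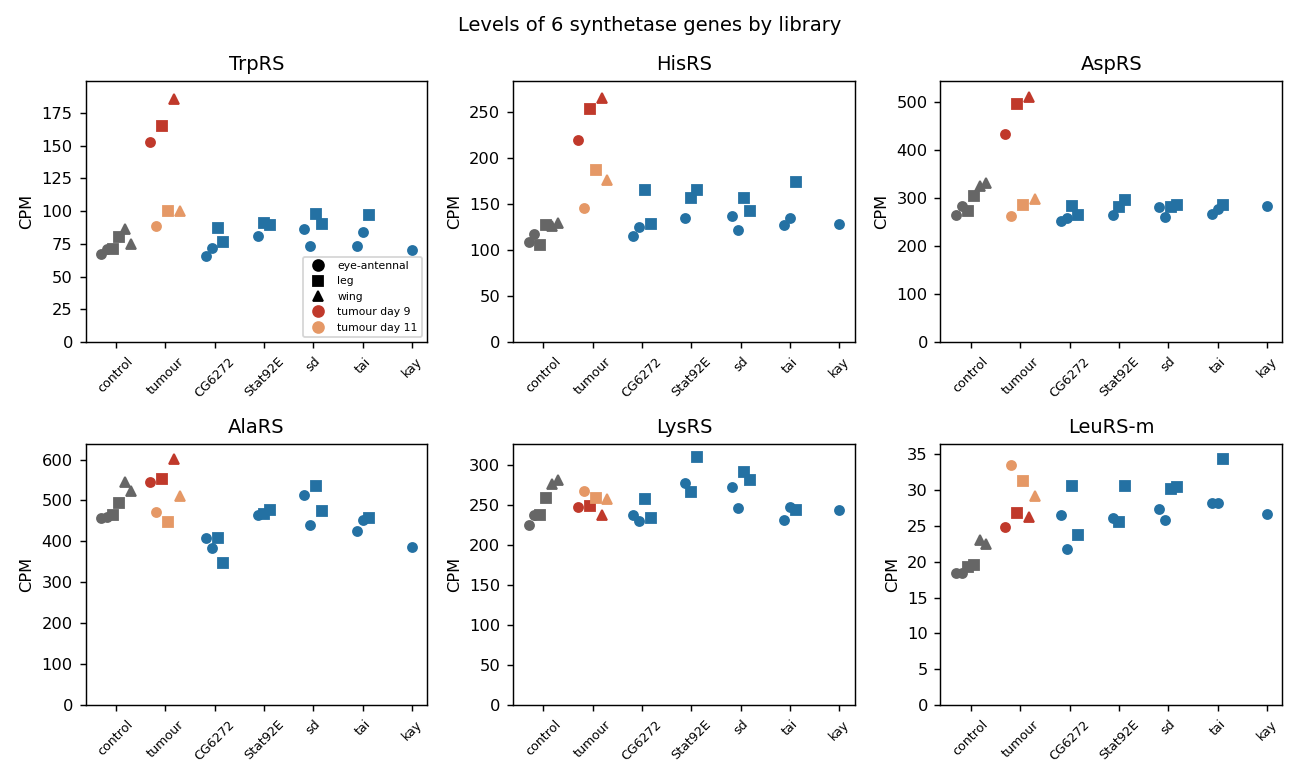
Level (CPM, y axes from 0) of TrpRS, HisRS, AspRS, AlaRS, LysRS and LeuRS-m in each library by genotype (x axis; sd, tai and kay as titled); symbols give the disc, and red marks tumours of day 9 and orange those of day 11. TrpRS, HisRS and AspRS are high in the 3 day 9 libraries, LysRS lies in one range in control and tumour, and LeuRS-m is higher in the 6 tumour libraries than in control.

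Each tumour day was then set against control alone. With day 9 tumours, 13 of 17 cytosolic genes rose and 0 fell, beside 26.1% and 25.7% of all genes tested, among them AspRS (log2 change 0.66, adjusted p 4.75e-07) and GlyRS (0.34, 0.000358). With day 11 tumours, 8 rose and 1 fell, beside 23.1% and 21.3% of all genes. TrpRS had a log2 change of 1.13 with day 9 and 0.36 with day 11 tumours, HisRS 1.01 and 0.50, ValRS 0.88 and 0.39, ThrRS 0.84 and 0.39, and AsnRS 0.78 and 0.30, each called on both days. SerRS and IleRS were called with day 9 tumours and had 0.09 (adjusted p 0.529) and 0.10 (0.238) with day 11. GluProRS was the gene that fell with day 11 tumours (-0.23, adjusted p 0.0108). In the day 9 libraries 13 cytosolic genes lay above all controls and 0 below, beside 22.3% and 18.4% of all tested genes, and in the day 11 libraries 6 lay above and 1 below, beside 18.8% and 15.3% of all genes. LeuRS-m was higher with both days (0.34 and 0.64) and TrpRS-m lower with both (-0.49 and -0.24).

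Other measures moved with tumour day beside the synthetases, and their part in the result was not tested. Ras85D had 1147 ± 153 CPM on day 9 and 641 ± 49.3 CPM on day 11 (SD, n = 3 each; log2 change -0.83 ± 0.10, adjusted p 0.000124), and Irbp18 91.3 ± 16.6 CPM and 49.9 ± 2.92 CPM (adjusted p 0.000184). The bZIP gene kay had 521 ± 79.3 CPM and 279 ± 31.6 CPM (adjusted p 0.0019), while scrib had 250.3 ± 22.2 CPM and 240.2 ± 16.2 CPM and was not called. Alignments to more than 1 place formed 68.3% to 76.1% on day 9 and 54.4% to 67.7% on day 11. Summed fat body markers were 254 to 330 CPM on day 9 and 238 to 396 on day 11. Lsp2 had 7.77 to 29.9 CPM on day 9 and 56.2 to 122 CPM on day 11, and Lsp1beta 4.94 to 16.4 and 26.5 to 77.6 CPM, without overlap, but neither was called (adjusted p 0.416 and 0.551). Lpin fell from 200.2 ± 21.2 CPM to 110.0 ± 14.5 CPM (adjusted p 0.00388). Summed hemocyte markers were 512 to 985 and 385 to 665 CPM, and crq fell (log2 change -0.47 ± 0.13, adjusted p 0.0287) with the other 7 not called.

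Synthetase levels were compared between tumours with a hairpin against CG6272, dissected on day 8, and tumours of days 9 and 11, so that genotype and day cannot be told apart. The deposited names of the CG6272, Stat92E and kay libraries carry an ending that those of control, tumour, sd and tai libraries lack. What this ending marks is not stated. It cannot be told apart from genotype where libraries with and without it are compared. CG6272, now Irbp18, encodes a bZIP protein of the C/EBP family that pairs with the bZIP protein Xrp1. Averaged over eye-antennal and leg discs, 11 of 17 cytosolic genes were lower in CG6272 hairpin tumours than in tumours and 0 were higher, with a median log2 change of -0.40, against 8.92% lower and 5.33% higher of all tested genes and a median of 0.01 over all. Of 14 mitochondrial genes 1 was higher and 0 were lower, with a median of 0.09. The summed cytosolic level in the 4 CG6272 libraries was 3170 to 3685 CPM, close to the 3224 to 3870 CPM of control discs. For 6 of the 17 genes all CG6272 libraries lay below the 4 tumour libraries of eye-antennal and leg discs, as did 7.52% of all tested genes, while 0 cytosolic genes and 5.4% of all lay above.

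ValRS and TrpRS were lowered most. ValRS had 97.2, 87.6, 120.1 and 94.9 CPM in the CG6272 libraries (eye-antennal replicates 1 and 2, leg replicates 1 and 2), below all 6 tumour libraries, with 3 libraries below the control range and 1 just above it (log2 change -0.80 ± 0.15, adjusted p 0.00225). TrpRS had 65.9, 71.8, 87.0 and 76.7 CPM, also below all tumour libraries (log2 change -0.75 ± 0.20, adjusted p 0.019). AsnRS had 169, 176, 206 and 175 CPM (log2 change -0.66 ± 0.15, adjusted p 0.00867), and only the leg replicate 1 library reached the lowest tumour library. SerRS had 205, 213, 256 and 201 CPM (log2 change -0.61 ± 0.18, adjusted p 0.0319), and HisRS 115, 126, 165 and 128 CPM (log2 change -0.59 ± 0.15, adjusted p 0.0133). In both, leg replicate 1 was the highest CG6272 library and overlapped with day 11 tumours. CysRS had 74.0, 66.1, 83.7 and 68.4 CPM (log2 change -0.48 ± 0.10, adjusted p 0.00344), below all tumour libraries.

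GlyRS and AlaRS, which were not called between tumour and control, were lower under the CG6272 hairpin. GlyRS had 234, 209, 235 and 203 CPM (log2 change -0.42 ± 0.12, adjusted p 0.0255) and AlaRS 408, 384, 409 and 348 CPM (log2 change -0.38 ± 0.09, adjusted p 0.00857). In both genes all 4 CG6272 libraries lay below all 6 tumour and all 6 control libraries, and for no other cytosolic gene did all 4 lie below or all 4 above the 6 controls. These 2 of 17 genes below and 0 above control stand beside 13.2% and 14.7% of all tested genes, so the share below is near the background. ThrRS had 346, 347, 436 and 367 CPM (-0.40 ± 0.13, adjusted p 0.0475), MetRS 119, 112, 138 and 115 CPM (-0.31 ± 0.07, 0.00815) and TyrRS 115, 126, 178 and 151 CPM (-0.30 ± 0.09, 0.0476). When any 1 of the 8 libraries was left out, the TyrRS call was lost in 7 cases, ThrRS in 6, SerRS in 5, and TrpRS, HisRS and GlyRS in 4 each, while ValRS, CysRS and MetRS were called in all 8. The TyrRS, ThrRS and SerRS calls were also lost in limma-voom with the dissection as a random block. The 6 cytosolic genes not called had log2 changes of -0.48 to 0.07, the largest in AspRS (-0.48 ± 0.18, adjusted p 0.0939) and IleRS (-0.24 ± 0.11, adjusted p 0.168). LysRS (-0.10), GluProRS (-0.08), GlnRS (-0.17) and ArgRS (0.07) made up the rest. TrpRS-m was higher, with 21.6, 20.2, 20.7 and 20.5 CPM in CG6272 libraries (log2 change 0.36 ± 0.09, adjusted p 0.0108), all above the 6 tumour libraries. The other 13 mitochondrial genes had log2 changes of -0.19 to 0.30, the largest in IleRS-m (0.30 ± 0.13, adjusted p 0.136) and MetRS-m (0.21 ± 0.13, adjusted p 0.32).

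**Figure D4:**
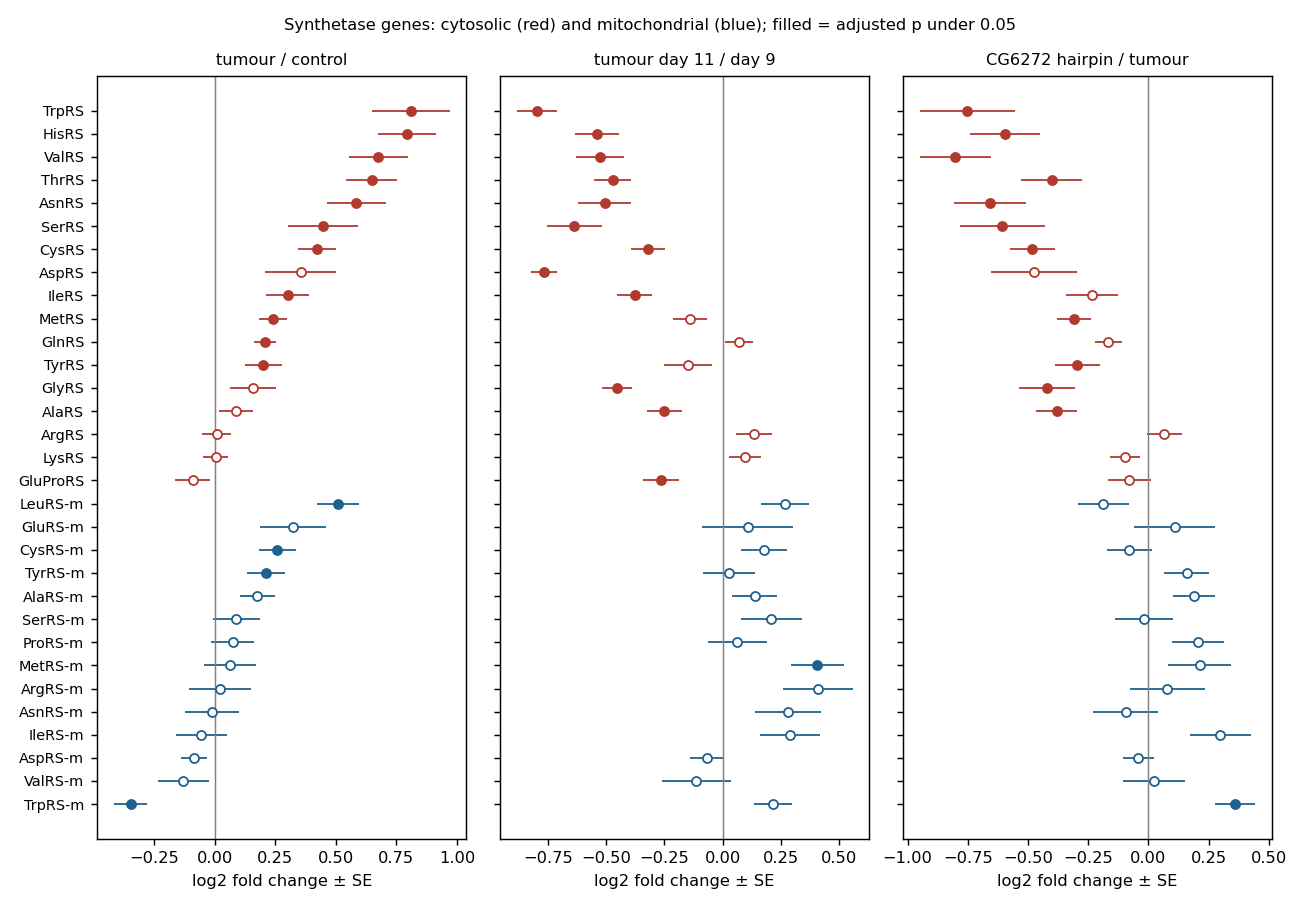
Log2 fold change ± SE (x axis) of each synthetase gene (y axis, in one order) for tumour over control, tumour day 11 over day 9 and CG6272 hairpin over tumour; filled points have an adjusted p under 0.05, red is cytosolic and blue mitochondrial. The 3 panels share the tumour libraries; 11, 12 and 11 cytosolic genes are called in them, to the right, left and left of 0.

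The number of genes called depended on the tumour day. With 1 tumour day, each disc has 1 tumour library, which is assumed to vary like the other groups. Against day 9 tumours alone, 12 of 17 cytosolic genes were lower, beside 12% of all genes tested, with log2 changes of -1.05 for TrpRS, -1.04 for ValRS and -0.78 for AspRS. Against day 11 tumours alone 2 were lower, beside 4.93% of all genes, ValRS (-0.47, adjusted p 0.0227) and CysRS (-0.29, 0.0494), and for 7 of 17 both day 11 libraries of these discs lay above all CG6272 libraries and for 0 below, beside 10.9% and 9.34% of all tested genes. With TrpRS at -0.33 (adjusted p 0.0625) and AlaRS at -0.25 (0.118), all 11 genes lower over both days had a negative log2 change. Without tumour leg replicate 1, a day 9 library, 3 genes were lower, beside 499 of 9803 tested genes. Without tumour eye-antennal replicate 1 or CG6272 leg replicate 2 there were 5, beside 550 of 9783 and 646 of 9715 genes. Without CG6272 eye-antennal replicate 1 or 2 there were 6 or 7, beside 581 of 9803 and 636 of 9785. In the reported fit 875 of 9814 genes were lower. With the 8 libraries of the comparison alone, 0 members were called, beside 452 lower and 221 higher of 9811 genes. Ras85D was also lower under the hairpin (adjusted p 0.00273 over eye-antennal and leg discs). It had 406 ± 45.6 CPM (SD, n = 4), against 894 ± 295 CPM in all tumour libraries, wing discs included (n = 6). The part of this in the synthetase result was not tested.

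The 17 cytosolic genes were also read by their place in the multi-synthetase complex as known from mammals, a split made after the values were seen. The 7 genes with a counterpart in that complex were ArgRS, AspRS, GlnRS, GluProRS, IleRS, LysRS and MetRS. The shares of all tested genes called were 28.3% higher in tumours, 8.92% lower under CG6272 and 7.83% lower on day 11. In tumours 3 of these 7 rose, with a median log2 change of 0.21, and 8 of the other 10 rose, with a median of 0.52. Under the CG6272 hairpin 1 of the 7 was lower (median -0.17) and 10 of the other 10 were lower (median -0.54). On day 11 against day 9, 3 of the 7 and 9 of the other 10 were lower. With day 9 tumours alone, 3 of the 7 and 10 of the other 10 rose against control, and 3 and 9 were lower under the CG6272 hairpin. With day 11 tumours alone, 2 and 6 rose, and 0 and 2 were lower under the hairpin. The 3 comparisons share the tumour libraries, so they are not separate evidence for the split.

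The remaining hairpin groups had 0 to 3 cytosolic genes called against tumours, and all share the tumour libraries with the CG6272 comparison. Under the Stat92E hairpin, against the JAK/STAT transcription factor, 2 cytosolic genes were lower, ValRS (-0.59 ± 0.17, adjusted p 0.0325) and AsnRS (-0.57 ± 0.17, 0.0387), beside a background of 6.78% lower and 6.5% higher. ValRS had 107, 118 and 131 CPM and AsnRS 174, 215 and 212 CPM in eye-antennal replicate 2 and leg replicates 1 and 2. The median over the 17 cytosolic genes was -0.18. In libraries titled sd, 3 cytosolic genes were lower, AsnRS (-0.64 ± 0.15, adjusted p 0.00756), HisRS (-0.52 ± 0.15, 0.0193) and ThrRS (-0.42 ± 0.13, 0.029), and TrpRS-m was higher (0.38 ± 0.09, 0.00588), beside a background of 12% lower and 9.26% higher. AsnRS had 197, 159.5, 201 and 177 CPM in these 4 libraries, and the median over the cytosolic genes was -0.20. In libraries titled tai, ValRS (-0.71 ± 0.17, adjusted p 0.0371) and MetRS (-0.32 ± 0.08, 0.0395) were lower, beside 1.74% lower and 0.978% higher, and the cytosolic median was -0.39. For 6 cytosolic genes, the number also found for CG6272, all tai-titled libraries lay below the 4 tumour libraries of these discs and for 0 above, beside 5.67% and 3.54% of all tested genes. In the library titled kay, 0 members were called by edgeR and 1 by DESeq2, and 7 had an unadjusted p below 0.05 in edgeR (cytosolic median -0.37), beside 0.112% lower and 0.0713% higher, and with 1 library the group was assumed to vary like the others.

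Against the separate tumour days these groups gave other counts. Without eye-antennal or leg replicate 1 of the tumours, 0 members were lower under Stat92E, 1 titled sd and 0 titled tai, and without either replicate 2 there were 6 under Stat92E, 7 to 9 titled sd and 4 to 5 titled tai. Without replicate 1, genes lower over all were 388 and 395 under Stat92E, 753 and 708 titled sd and 89 and 73 titled tai. Without replicate 2 they were 635 and 732, 1093 and 1195, and 192 and 274, of 9719 to 9811 tested in each fit. Leaving out any 1 Stat92E library also gave 0 members lower, beside 432 to 566 of 9780 to 9811 genes. With day 9 tumours alone, 10 cytosolic genes were lower under the Stat92E hairpin, 10 in libraries titled sd and 11 titled tai, beside 10.5%, 14.1% and 5.86% of all genes tested. With day 11 tumours alone 0 were lower in each, beside 3.54%, 5.68% and 0.719%. The summed cytosolic level was 3548 to 3894 CPM in Stat92E, 3382 to 3969 in sd-titled and 3323 to 3622 in tai-titled libraries and 3285 CPM in the kay-titled library, all within or below the range of day 11 tumours and under that of day 9. These groups were dissected on days 7 to 10, and no tumour library of day 7, 8 or 10 is analysed here, so genotype and day cannot be told apart in them. For Stat92E and kay the ending of the library name also goes with genotype.

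CG6272 and Stat92E hairpin tumours were both dissected on day 8 and share no tumour library, which allowed a direct comparison. In this, 0 of 31 members were called, beside 3.53% lower and 1.37% higher of all tested genes. In edgeR 5 members had an unadjusted p below 0.05, a threshold for which no share over all genes is given. DESeq2's test called 2 members, beside 564 genes lower and 465 higher of 9814. The stricter count filter called 1, beside 363 lower and 157 higher of 8233. All 17 cytosolic genes had a negative log2 change, with a median of -0.15 against 0.02 over all tested genes. The largest were AlaRS (-0.28 ± 0.10, adjusted p 0.111) and GlyRS (-0.28 ± 0.13, 0.208), and the nearest to the threshold was LysRS (-0.24 ± 0.07, 0.0597). For 4 of the 17 genes all CG6272 libraries lay below all 3 Stat92E libraries, beside 9.31% of all tested genes, and for 0 above, beside 8.02%. AlaRS was 1 of the 4, at 408, 384, 409 and 348 CPM against 465, 467 and 478 CPM. The median of the mitochondrial genes was 0.14.

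Proteins that work beside the synthetases were read from lists of their own. In tumours 28.3% of all tested genes rose and 24.5% fell, against which the counts of all lists here are to be read. Of the partner genes 8 were tested, and 4 rose and 0 fell in tumours. AIMP3, a scaffold of the multi-synthetase complex, rose most (log2 change 0.79 ± 0.08, adjusted p 1.26e-06), from 20.4 ± 1.39 CPM to 35.4 ± 4.55 CPM (SD, n = 6 each). Slimp, a mitochondrial protein related to seryl-tRNA synthetase (0.42 ± 0.11), AIMP1 (0.27 ± 0.07) and AIMP2 (0.25 ± 0.08) rose less. The cytosolic phenylalanine subunits alpha-PheRS (0.05 ± 0.09) and beta-PheRS (-0.15 ± 0.07) were not called. Under the CG6272 hairpin AIMP3 was the 1 partner of 8 that fell (-0.36 ± 0.10, adjusted p 0.0274), beside 8.92% of all tested genes. On day 11 against day 9 GatA, of the mitochondrial amidotransferase, was the 1 called (0.35 ± 0.10), beside 4.49% higher and 7.83% lower of all tested genes. Of 5 cytosolic elongation factor genes 4 fell in tumours and 0 rose. The log2 changes were -1.99 ± 0.40 for eEF1alpha2 and -0.25, -0.19 and -0.15 for eEF1gamma, eEF1delta and eEF2. Since eEF1alpha1 and eEF5 are not analysed here, the fall of eEF1alpha2 cannot be extended to eEF1alpha1. Of 9 mitochondrial translation factors 4 rose, mEFTu1 (0.54 ± 0.06), mEFTu2 (0.42 ± 0.06), mEFG1 (0.42 ± 0.08) and mEFTs (0.30 ± 0.06), and 0 fell.

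A list of 12 genes was read for the integrated stress response, the pathway that senses uncharged tRNA and other stresses. It also held stress genes not particular to that pathway, among them Gadd45, Atf3, Sesn and Irbp18. Of the 12, 10 rose in tumours and 1 fell (median log2 change 0.95), beside 28.3% and 24.5% of all tested genes. The largest were Thor, a translation inhibitor (2.80 ± 0.54), Gadd45 (2.78 ± 0.18), Atf3 (2.50 ± 0.18) and Irbp18 (2.21 ± 0.19), and Sesn fell (-0.75 ± 0.28). The mRNA of crc, the fly ATF4, rose little (0.22 ± 0.07, adjusted p 0.0162), and its mRNA level does not measure its translation. Under the CG6272 hairpin 6 of the 12 fell, beside 8.92% of all tested genes, 1 of them Irbp18, the target of the hairpin, with crc at -0.44 ± 0.09 (adjusted p 0.0039), Xrp1 at -0.77 ± 0.14, trbl at -0.86 ± 0.17 and PPP1R15, a phosphatase subunit of this pathway, at -0.58 ± 0.10. On day 11 against day 9, 7 of the 12 fell, beside 7.83% of all tested genes, with Thor at -1.87 ± 0.54, trbl at -0.64 ± 0.09, the kinase gene PEK at -0.43 ± 0.11 and crc at -0.31 ± 0.06, and Gcn2, the kinase that binds uncharged tRNA, was not called (0.05 ± 0.06).

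Amino acid supply and tRNA making were read in the same way. Of 10 amino acid transporter genes 3 rose and 2 fell in tumours, shares near the 28.3% and 24.5% of all tested genes. JhI-21 and mnd encode LAT-type transporters. The risers were path (from 286 ± 29.3 CPM to 811 ± 285 CPM, SD, n = 6 each), JhI-21 (log2 change 0.83 ± 0.14) and mnd (0.65 ± 0.25), and each of these 3 fell under the CG6272 hairpin (-2.15 ± 0.26, -0.76 ± 0.17 and -1.86 ± 0.32). Of the transporters 4 fell and 2 rose under that hairpin, beside 8.92% and 5.33% of all genes, and 3 fell and 1 rose on day 11, beside 7.83% and 4.49%. Of 16 tested amino acid synthesis genes 4 rose and 8 fell in tumours, with Nmdmc, of mitochondrial folate metabolism, at 1.38 ± 0.14 and the serine synthesis genes aay, CG6287 and CG11899 at -2.65 ± 0.21, -1.94 ± 0.15 and -1.73 ± 0.20. Of 12 genes of RNA polymerase III and tRNA maturation 8 rose and 0 fell in tumours, beside 28.3% and 24.5% of all genes, led by RNaseZ, which trims tRNA ends (1.08 ± 0.08), and La, which binds new polymerase III transcripts (0.85 ± 0.08). RNaseZ (-0.61 ± 0.09), La (-0.62 ± 0.10) and Bdp1 (-0.47 ± 0.09) fell under the CG6272 hairpin, and on day 11 against day 9 RNaseZ (-0.04 ± 0.11) and La (-0.09 ± 0.11) were not called. Of 8 Myc and nucleolar growth genes 5 rose and 1 fell, with Myc at 0.81 ± 0.08 and Mnt, its antagonist, at -0.72 ± 0.10. On day 11 against day 9, 4 of these 8 rose, among them Fib (0.39 ± 0.09) and Nnp-1 (0.37 ± 0.08), and 0 fell, while 12 of the 17 cytosolic synthetase genes fell.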

How the data were processed

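RNA sequencing counts of 27 libraries were analysed, as raw read counts per gene deposited by the authors in 1 table with a column for each library. Per the submitters' processing notes, TopHat2, HTSeq and the build dm3 were used. For tool versions, the gene annotation and strand handling, nothing was stated in those notes. Members and lists were chosen with earlier results of these data known. FlyBase identifiers were matched to symbols, exon lengths and overlaps in the Ensembl 115 annotation of a later build, from which no coordinates were taken (14638 of 15348 identifiers had a symbol; of 129 list genes 121 matched). HTSeq's summary lines were left out of library sizes.

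The filter kept 9814 genes that reached 1 CPM in 2 or more libraries. All 27 libraries entered 1 quasi-likelihood fit in edgeR 4.0.16 (R 4.3.3) with TMM scaling and a mean per genotype and disc (residual df 12), and Benjamini-Hochberg adjusted p-values over all tested genes were called below 0.05. Effects were averaged over discs with equal weight. The tumour day comparison used the same counts with a term for day (residual df 11), and it, the fits with tumours of 1 day, the fit with library totals and the split by the multi-synthetase complex were chosen after seeing the data. DESeq2 1.42.0 and limma 3.58.1 gave alternatives, and the scripts were tested on simulated counts. Levels are CPM, and intervals between libraries are SDs. Every member is accounted for: those called in the tumour or CG6272 comparison are given with their values, those that missed by range with the 2 largest named, and for other lists the largest called changes, up to 4 a list. Further list genes named in the text were chosen after their values were seen.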

Additional observations from a re-analysis of the deposited data

Results flagged for a closer look

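In 2 of 124 sets of libraries of 1 member and genotype, a library stood apart from the rest by Dixon's criterion, where chance alone gives about 1 in 20 sets. Among the 4 libraries titled sd, AspRS was lowest in eye-antennal replicate 2, at 260.9 CPM, with the next library at 282 CPM. That library also had the highest summed fat body markers, 11964 CPM, and their part in this value was not tested. ProRS-m was highest in leg replicate 1 of the sd title, at 15.3 CPM, with the next library at 14.1 CPM.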

How the results depend on the processing

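Counts are of members called unless said otherwise. No direction of a called value reversed. With DESeq2 size factors 1 member fell in leg tumours (0 in the reported fit). With library totals in place of TMM, 5 mitochondrial genes rose in tumours (3), 8 members rose in wing (4), 0 fell in eye-antennal discs (1), 0 differed among control discs (2), and 5 members, 1 cytosolic and 4 mitochondrial, were higher on day 11 (1, 0 and 1). Without a count filter 1 differed among control discs, 1 was lower titled tai (2) and 0 were higher on day 11. At 5 CPM 1 fell in leg tumours and 1 was lower in CG6272 than in Stat92E tumours (0). DESeq2's test called 1 difference among discs (0), 5 lower under Stat92E (2), 5 titled sd (3), 4 titled tai (2), 1 titled kay (0) and 2 between CG6272 and Stat92E (0). Limma-voom with the dissection as a random block (estimated correlation 0.442), a change of both tool and block, called 1 mitochondrial rise (3), 1 difference among discs, 0 higher under CG6272 (1), 1 lower under Stat92E and 0 titled tai, and it did not call SerRS, TyrRS, CysRS-m and TyrRS-m in tumours or SerRS, ThrRS, TyrRS and TrpRS-m under CG6272.

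With the libraries of each comparison alone, 5 mitochondrial genes rose in tumours, and 1 member rose and 0 fell in eye-antennal, 2 rose in leg (10) and 0 in wing discs. In that fit 0 differed among control discs, 0 were lower or higher under CG6272 (11 and 1), 0 were lower under Stat92E, titled sd or titled tai, and 7 were lower and 0 higher on day 11 (12 and 1). Over all genes, 1059, 1112 and 616 rose in eye-antennal, leg and wing discs with those libraries. Under CG6272 452 genes were lower, under Stat92E 110, titled sd 648 and titled tai 11. With day 9 tumours alone, 2 members, both mitochondrial, fell in tumours (1) and 1 mitochondrial gene rose, 1 fell in leg and 1 in wing discs, 9 rose in wing discs, 4 were higher under CG6272, and 10, 10, 11 and 7 were lower under Stat92E and titled sd, tai and kay, with 1, 2 and 1 higher in the first 3. For kay this sets 1 library against 1 and compares those libraries, not the genotypes. With day 11 tumours alone, 2 fell in tumours, 1 of them cytosolic, 3 rose and 0 fell in eye-antennal, 1 fell in leg and 1 rose in wing discs, 2 were lower and 0 higher under CG6272, 0 were lower under Stat92E or titled sd or tai, and 2 were higher titled sd. With a term for day, 1 fell in leg and 1 in wing discs, 8 rose in wing discs, 1 differed among discs, and 8, 9, 11 and 1 were lower under Stat92E and titled sd, tai and kay, with 1 higher titled tai. With leg discs alone 1 was lower titled sd.

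Replicate numbers mark dissections within a genotype. Deviations of same-numbered libraries of a genotype correlated at -0.057 to 0.546 over 8 pairs (median 0.22), and those of same-numbered libraries of different genotypes had a median of -0.05 over 58 pairs, so numbers were not taken to pair tumour with control or hairpin libraries. With the replicate block, 14 members rose in tumours as in the reported fit, 6 were lower titled sd, and 10 were lower and 3 higher on day 11, the latter 1 cytosolic and 2 mitochondrial.

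Leaving out 1 library at a time gave 11 to 15 members higher and 1 to 2 lower in tumours (cytosolic 9 to 12 and 0 to 1, mitochondrial 2 to 4 and 1 to 1). By disc, 2 to 9 rose and 0 to 1 fell in eye-antennal, 4 to 7 and 0 to 1 in leg and 0 to 5 and 0 to 1 in wing discs. Among control discs 0 to 2 differed, and 0 to 0 tumour effects differed among discs. Lower and higher were 3 to 12 and 0 to 3 under CG6272, 0 to 6 and 0 to 0 under Stat92E, 1 to 9 and 1 to 2 titled sd, 0 to 5 and 0 to 0 titled tai, 0 to 0 and 0 to 0 titled kay, 0 to 1 and 0 to 0 for CG6272 against Stat92E, and 6 to 11 and 0 to 1 on day 11. Counts over all genes shifted in these fits as well, and the cause of these shifts was not tested.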
